A study of Oryzias latipes with 4 samples.

Results

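Spliced transcript models with many ribosome footprints but little RNA were looked for in medaka (Oryzias latipes), in a dissected piece holding the hypothalamus, the pituitary and the ventral part of the telencephalon, and 3 were found. A model was taken when its length was above 300 and below 5000 bases and less than its span on the chromosome, its span was below 50000 bases, its level was at least 5 FPKM in both Ribo-seq libraries and it was below 1 FPKM in both RNA-seq libraries. FPKM is the number of mapped fragments per kilobase of model, scaled to a fixed number of fragments per library. Of the 93896 models in the table, 70777 met the limits on length and span, and 3 of these, or 0.00424%, met the limits on FPKM. The models were thus chosen by their FPKM in all 4 libraries, and these values are given as a description, with no test.

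The libraries came from female medaka obtained from a dealer, kept under the condition the labels call SD, and sampled 16 h after the move to LD. The Ribo-seq group and the RNA-seq group held 2 libraries each, both from the same dissected region and the same condition. The labels give no strain, age or number of fish per library, and they do not say that the replicates are separate fish, so that the spread between libraries may be technical. There is no SD group among these samples.

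Ribo-seq sequences the pieces of mRNA that ribosomes shield from nuclease, and RNA-seq sequences the RNA of the same tissue, so the ratio of the assays is read as a relative measure of translation. Footprints are themselves cut from RNA, so a model rich in footprints is normally well covered in RNA-seq too. Among the genes at and beside the models described here, dnajc12 and sirt1 have known roles in neurons or other cells. The longest model contains dnajc12, and a neighbouring model outside the set contains sirt1. DNAJC12 is a J-domain co-chaperone that, in humans, helps the folding of the phenylalanine, tyrosine and tryptophan hydroxylases, the enzymes that start the breakdown of phenylalanine and the synthesis of dopamine and serotonin. SIRT1 is an NAD-dependent deacetylase of histones and transcription factors, known in the mouse hypothalamus for roles in feeding and in the circadian clock.

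All 3 models lay next to each other on chromosome 15, each overlapping the next, so they are 1 locus and not 3 independent cases. Positions are those of the deposited table, whose build is not named; the gene positions of RefSeq assembly ASM223467v1 lined up with them. The first, MEDAKA021159, runs from 29785079 to 29786315 and has 664 bases. It had 9.33 and 15.6 FPKM in Ribo-seq replicates 1 and 2 and was listed at 0 in both RNA-seq libraries. The protein-coding RefSeq gene LOC101174857, which has only this placeholder name, lies wholly inside it and fills 83.5% of its span.

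The middle model, MEDAKA021173, runs from 29785201 to 29789668 and has 792 bases. It had 17.8 and 19.7 FPKM in Ribo-seq replicates 1 and 2 and was listed at 0 in both RNA-seq libraries. It reaches over 91.0% of LOC101174857 and 29.8% of dnajc12, and neither gene is matched to it, since they fill only 21.0% and 24.1% of its span.

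The longest, MEDAKA021160, runs from 29788487 to 29792342 and has 1525 bases. It had 15.9 and 34.9 FPKM in Ribo-seq replicates 1 and 2 and was again listed at 0 in both RNA-seq libraries. It contains all of dnajc12, which fills 93.5% of its span, and its end overlaps the first 151 bases of the span of sirt1. In each of the 3 models both Ribo-seq libraries were above both RNA-seq libraries, as the limits require. No fold is given against a group listed at 0.

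**Figure D1:**
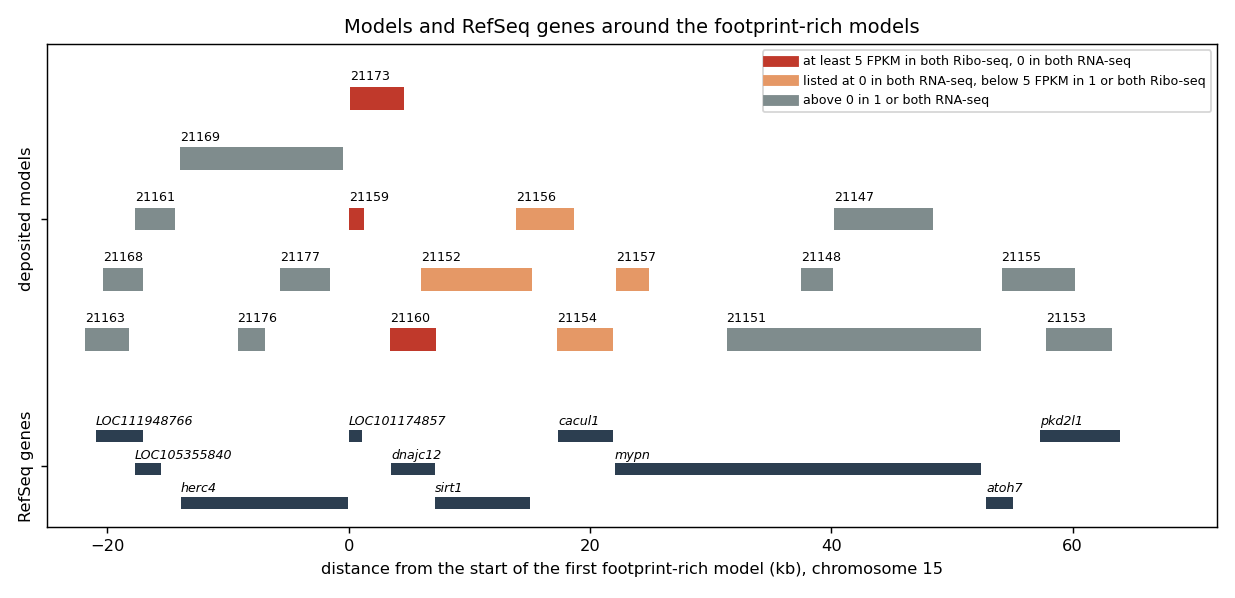
Deposited transcript models (upper bars, labelled with the last digits of their ID) and RefSeq genes (lower bars) by distance in kb from the start of the first footprint-rich model on chromosome 15. The 3 footprint-rich models (red) each overlap the next one and are followed by 4 models (orange) that are also listed at 0 in both RNA-seq libraries, while the models to the left and right (grey) are above 0 in at least 1 RNA-seq library.

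The footprint levels themselves were high but not extreme. Among the 70777 models within the length and span limits, MEDAKA021159 stood above 90.3% and 90.8% of models in Ribo-seq replicates 1 and 2. MEDAKA021173 stood above 94.9% and 92.5%, and MEDAKA021160 above 94.3% and 95.9%. A level of at least 5 FPKM in both Ribo-seq libraries was reached by 11024 of these models, or 15.6%, and a level below 1 FPKM in both RNA-seq libraries was found for 25036, or 35.4%. Few models had both.

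Ribo-seq replicate 2 was higher than replicate 1 for each of the 3 models, by 1.67 times for MEDAKA021159, 1.11 times for MEDAKA021173 and 2.19 times for MEDAKA021160. Over the other 11021 footprint-rich models the same ratio had a median of 1.59 and quartiles of 1.34 and 1.83. The first model lay within these quartiles, the middle one below them and the longest above them. Overlapping models can exchange reads when their levels are estimated, and whether this plays a part in the unequal ratios was not tested.

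Many low FPKM values came in steps, from which the worth of 1 fragment was estimated. Model length less a mean fragment of 200 bases (SD 80) was assumed in both assays, and no other fragment length was compared. The steps then gave a depth, in units of 1e6 fragments, of 10.3 and 13.3 for Ribo-seq replicates 1 and 2. For RNA-seq replicates 1 and 2 the depth was 21.6 and 23.3. On this scale 42.8% to 43.0% of low Ribo-seq values and 34.8% to 36.7% of low RNA-seq values were within 0.05 of a whole number, where evenly spread values would give 10%, so counts made from them are approximate. MEDAKA021159 then held about 44.3 and 95.7 footprint fragments in replicates 1 and 2, MEDAKA021173 about 108 and 154, and MEDAKA021160 about 216 and 613. A single RNA-seq fragment would be worth 0.10 and 0.0928 FPKM in MEDAKA021159 (RNA-seq replicates 1 and 2), 0.0783 and 0.0727 in MEDAKA021173, and 0.0350 and 0.0325 in MEDAKA021160. The RNA-seq libraries were thus the deeper ones. An estimated 0 would thus mean less than 1 fragment assigned to the model. A 0 can also stand where no estimate was made, so these values do not tell whether RNA-seq reads were present.

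The lengths of the models were mixed as to multiples of 3, which does not tell whether they hold coding sequence. Only MEDAKA021173, with 792 bases or 264 codons, is a multiple of 3. The lengths of MEDAKA021159 and MEDAKA021160 each leave a remainder of 1, although the span of each contains the whole of a protein-coding RefSeq gene. Lengths were a multiple of 3 in 1 of the 3 models (33.3%), against 74.0% of the models within the length and span limits, 61.6% of those with at least 5 FPKM in both Ribo-seq libraries, and 78.8% of all models. With 3 models at 1 locus, this share is a count and no more.

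The 3 models had a median length near that of the models within the length and span limits, and spans below the median. Their median length was 792 bases, against 759 bases (quartiles 481 and 1417) within the length and span limits. Their spans were 1237, 4468 and 3856 bases, a median of 3856 against 5632. Exons made up 53.7% of the span of MEDAKA021159, 17.7% of MEDAKA021173 and 39.5% of MEDAKA021160, where the median of the 70777 models was 18.2%.

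Each of the 3 models overlapped another, as did 75.2% of the models within the length and span limits. MEDAKA021159 shares 1115 bases with MEDAKA021173, which is 90.1% of the span of the first and 25% of the second. MEDAKA021173 shares 1182 bases with MEDAKA021160 (26.5% and 30.7% of their spans). The only model outside the set that overlaps one of them is MEDAKA021152, which shares 1275 bases with MEDAKA021160. These are overlaps of spans. The table gives neither exons nor strand of the models, so whether exons overlap or run antisense cannot be told.

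All 3 models overlapped a protein-coding RefSeq gene, as did 75.3% of the models within the length and span limits. None overlapped a lncRNA, tRNA, rRNA, snRNA, snoRNA, miRNA or pseudogene of RefSeq, types that 5.81%, 0.219%, 0.00848%, 0.0283%, 0.129%, 0.134% and 0.332% of those 70777 models overlapped. By the rule that model and gene each cover at least 50% of the other, 2 of the 3 (66.7%) were matched to a gene, against 22.6% within the length and span limits.

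The 0 in RNA-seq did not stop at the 3 models. The next 4 models on chromosome 15 were also listed at 0 in both RNA-seq libraries. This made 7 models in a row, from 29785079 to 29809947, that were listed at 0. The model after dnajc12, MEDAKA021152 (29791068 to 29800251, 2992 bases), contains all of sirt1. It had 4.47 and 6.35 FPKM in Ribo-seq replicates 1 and 2, and it failed the footprint limit in replicate 1 alone.

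MEDAKA021156 (29798947 to 29803749), which bridges sirt1 and cacul1, had 1.86 and 2.99 FPKM in Ribo-seq replicates 1 and 2. MEDAKA021154 (29802331 to 29806993) contains all of cacul1, a gene for a cullin-domain protein associated with the cell cycle kinase CDK2, and had 1.40 and 1.14 FPKM. The last of the 7, MEDAKA021157 (29807270 to 29809947), lies within mypn, the gene of a sarcomere protein of muscle, and had 0.341 and 0 FPKM. Footprint levels were highest at the 3 models and lower at each of the next 4 in Ribo-seq replicate 1, and likewise in replicate 2. This order follows in large part from the rule, since the 3 met the footprint limit in both libraries and the next 4 did not.

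The stretch coincided with a chain of overlapping spans. The first 6 of the 7 models overlap one after another over 21.9 kb, up to 29806993, and the seventh stands alone 276 bases further on. The nearest model before the stretch, MEDAKA021169, ends 491 bases before it, and the nearest one after it begins 6443 bases beyond its end. Of 10647 chains of at least 3 overlapping models in the table, 7 had every model listed at 0 in both RNA-seq libraries. In 1 of those 7, this one, a model reached 1 FPKM in both Ribo-seq libraries. That it did so here follows from the rule, since this chain holds the models chosen for their footprints.

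**Figure D2:**
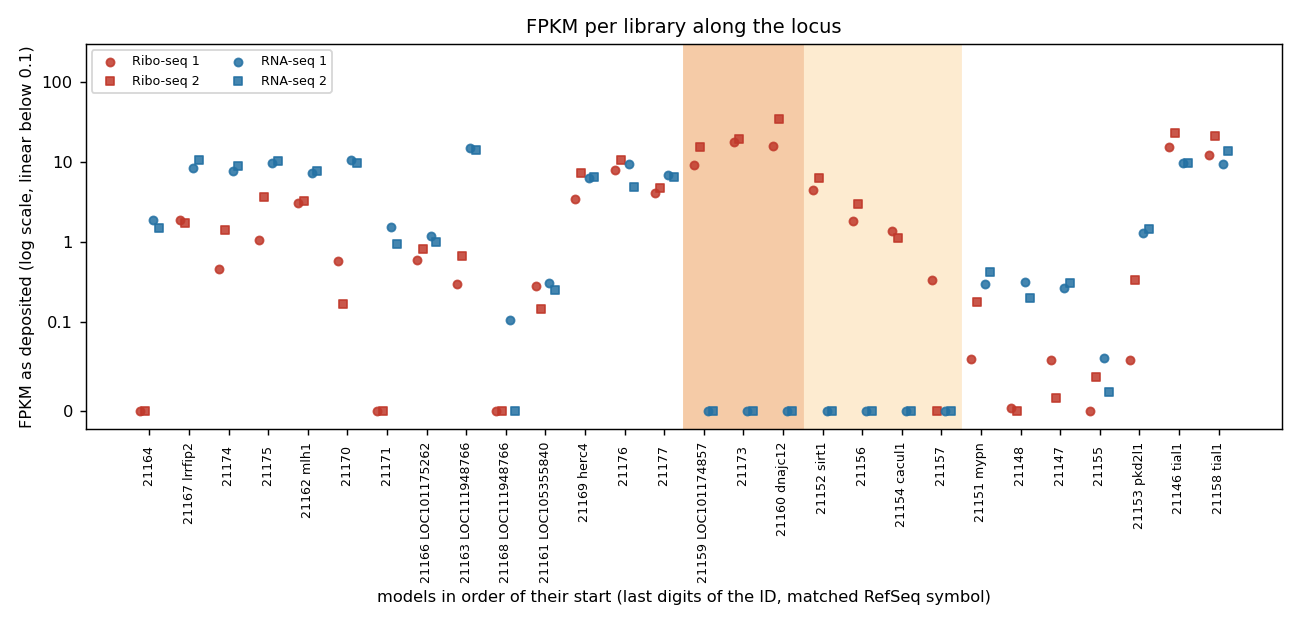
FPKM as deposited (vertical axis, logarithmic above 0.1 and linear below) of each library for the models along the locus in order of their start, with Ribo-seq in red and RNA-seq in blue, circles for replicate 1 and squares for replicate 2. In the 3 footprint-rich models (dark shading) Ribo-seq lies between 9.33 and 34.9 FPKM and RNA-seq at 0, and RNA-seq stays at 0 through the 4 models after them (light shading).

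Median RNA levels were lower after the stretch than before it, a difference that was not tested. The 14 models before it had median levels of 7.11 and 6.52 FPKM in RNA-seq replicates 1 and 2, and the 7 after it 0.321 and 0.422. MEDAKA021169, the nearest before it, matched to herc4, a ubiquitin ligase gene, had 3.51 and 7.31 FPKM in Ribo-seq replicates 1 and 2, against 6.42 and 6.45 FPKM in RNA-seq replicates 1 and 2. MEDAKA021146, further on after it and matched to tial1, the gene of an RNA-binding protein, had 15.4 and 23.5 FPKM in Ribo-seq, against 9.69 and 9.76 FPKM in RNA-seq. The assays overlap at the herc4 model and do not at MEDAKA021146. They do overlap at MEDAKA021158, also matched to tial1, with 12.3 and 21.3 FPKM in Ribo-seq, against 9.52 and 13.9 FPKM in RNA-seq. The model at mypn nearest to the stretch, MEDAKA021151, was low in both assays, with 0.0586 and 0.181 FPKM in Ribo-seq, against 0.302 and 0.422 FPKM in RNA-seq.

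From 60 kb before to 50 kb after the stretch there were 21 other models. Their Ribo-seq levels ran from 0 to 15.4 FPKM in replicate 1 and from 0 to 23.5 in replicate 2, against 0.0594 to 14.9 FPKM in RNA-seq replicate 1 and 0 to 14.0 in replicate 2. The rule took none of these models, though it was applied to the FPKM of every model. They were tested in a fit over the whole table (limma on log2 of scaled FPKM plus 1, Ribo-seq minus RNA-seq, adjusted p below 0.05). Of the 11 with a mean of at least 1 FPKM, 3 were called higher in Ribo-seq and 4 lower, where 23.9% and 33.7% of all tested models were. tial1 (MEDAKA021146) was higher by 1.64 ± 0.14 on the log2 scale (SE, limma, adjusted p = 0.0039). MEDAKA021158, the other model matched to tial1, was also called higher (1.20 ± 0.26, limma, adjusted p = 0.024). herc4 (MEDAKA021169) differed by 0.39 ± 0.23 and was not called (limma, adjusted p = 0.22). Its difference was 0.82 without Ribo-seq replicate 1. Wholly inside the span of the herc4 model, MEDAKA021176 was called higher (1.09 ± 0.30, limma, adjusted p = 0.042). Its assays overlap, with 7.93 and 10.8 FPKM in Ribo-seq, against 9.48 and 4.92 FPKM in RNA-seq. MEDAKA021177, also inside the span of the herc4 model, was not called (0.18 ± 0.18, limma, adjusted p = 0.44). Without either RNA-seq replicate, 1 of the 11 was called higher and 1 lower. The sizes and calls depend on the scaling: with FPKM as deposited the median difference of all tested models moved to -0.79, against -0.20 with scaling, 0 of the 11 were called higher and 6 lower, and tial1 was no longer called (0.90 ± 0.34; limma, adjusted p = 0.090). Over the whole table that setting called 2425 models higher and 21141 lower, against 12116 and 17048 with scaling. The sirt1 model, the only other one overlapping the 3, is given without a test, since it is listed at 0 in both RNA-seq libraries and enters the fit only through Ribo-seq.

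In order of position, 2933 stretches of 1 to 7 adjacent models were listed at 0 in both RNA-seq libraries, 3397 models or 3.62% of the table, and 2559 of them held a single model. The longest was that of the 3 footprint-rich models, with 7, and the next longest held 6. A model with at least 1 FPKM in both Ribo-seq libraries occurred in 14 stretches. This one held 6 such models, of which 3 were chosen by the rule for their footprints, and each of the other 13 held 1. Those 13 models were 186 to 249 bases long, below the lower length limit, while the 6 here are 664 to 2992 bases long.

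**Figure D3:**
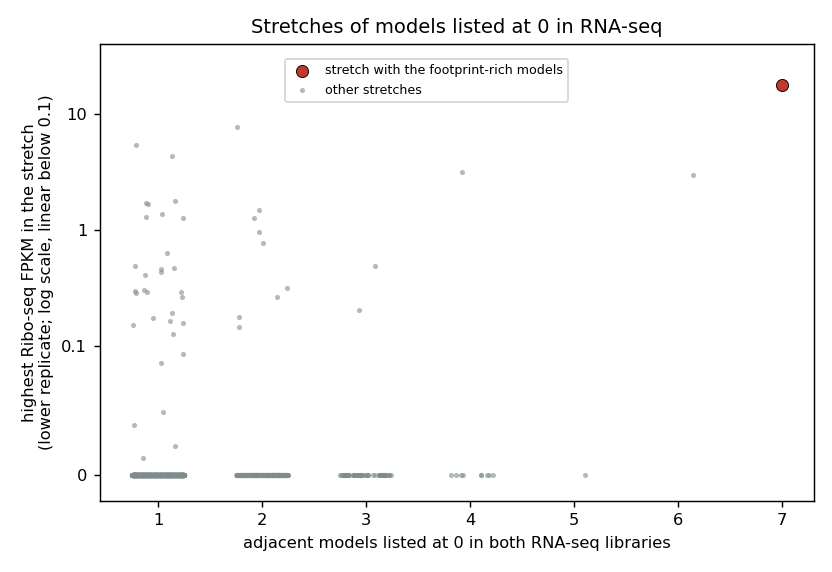
Each point is a stretch of adjacent models listed at 0 in both RNA-seq libraries, by the number of models in it (horizontal axis, points spread sideways) and by the highest Ribo-seq FPKM of its models, taking the lower replicate of each model (vertical axis, logarithmic above 0.1). The stretch with the footprint-rich models has 7 models and reaches 17.8 FPKM; most others hold 1 model and lie at 0.

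Seen from the RNA side, a 0 went with few footprints almost everywhere. Within the length and span limits, 1307 models (1.85%) were listed at 0 in both RNA-seq libraries. Of these, 1269 were also at 0 in at least 1 Ribo-seq library. Another 6 had at least 1 FPKM in both, the 3 chosen for their footprints among them, and all 6 lay in this stretch. Outside it, the highest lower-replicate Ribo-seq level of such a model was 0.954 FPKM. That this is below 5 FPKM follows from the rule, which took every such model at or above that limit.

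Among models matched to a RefSeq gene with a symbol, 28 of 7245 (0.386%) were listed at 0 in both RNA-seq libraries. Only dnajc12 (chosen by the rule), sirt1 and cacul1 among these 28 had at least 1 FPKM in both Ribo-seq libraries. The highest lower-replicate level of the other 25 was 0.0871 FPKM. sirt1 and cacul1 are known to be expressed in most tissues, which is background from outside these data. In a table of FPKM, a 0 can stand for a locus without reads or for one where no estimate was made. Which of these holds here was not tested, since the deposited table gives no status for its estimates.

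Footprint-rich models nearly always had RNA. The other 11021 models with at least 5 FPKM in both Ribo-seq libraries had a median of 13.1 FPKM in the higher of their RNA-seq libraries, with a 1st percentile of 2.64. The lowest of these values was 1.18 FPKM; that it is at least 1 follows from the rule, which took every footprint-rich model below 1. Just above that limit were MEDAKA051678 on chromosome 18 (146 and 256 FPKM in Ribo-seq, against 1.18 and 0.343 in RNA-seq), MEDAKA069345 on chromosome 12 (6.52 and 6.53, against 1.28 and 0) and MEDAKA049663 on chromosome 6 (9.16 and 10.7, against 1.32 and 0.695).

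**Figure D4:**
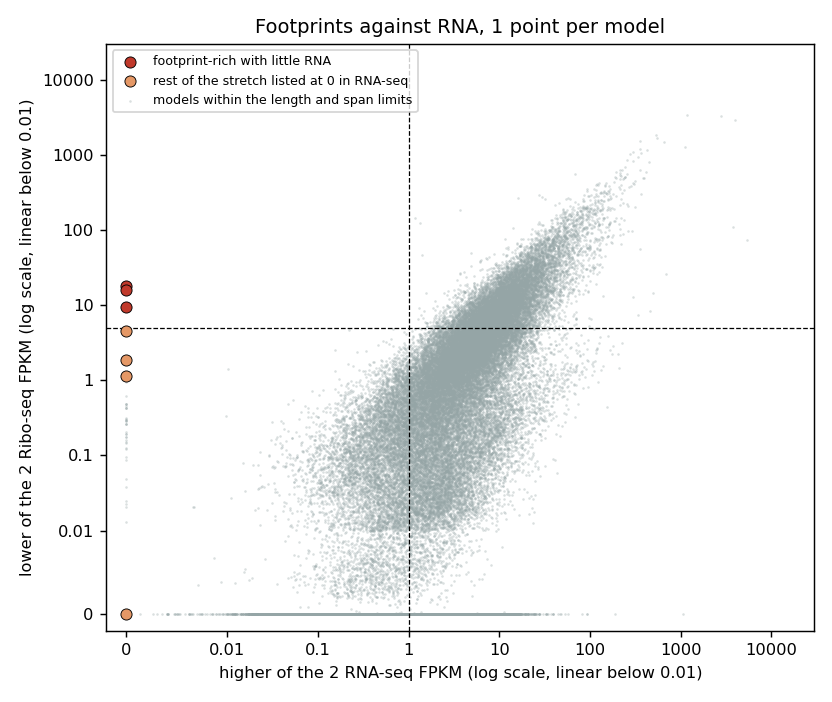
Lower of the 2 Ribo-seq FPKM (vertical axis) against the higher of the 2 RNA-seq FPKM (horizontal axis) for each of the 70777 models within the length and span limits, both axes logarithmic above 0.01 and linear below; dashed lines mark the limits of 5 and 1 FPKM. The upper left holds only the 3 footprint-rich models (red), since these limits are the rule that chose them. They lie at 0 in RNA-seq, with the rest of their stretch (orange) below them.

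Just below the footprint limit, with little RNA, stood MEDAKA086258 on chromosome 22 (4.85 and 6.38 FPKM in Ribo-seq, against 0.674 and 0.194 in RNA-seq), MEDAKA027559 on the same chromosome (5.17 and 4.68, against 0 and 0.223) and the sirt1 model itself. The member closest to the footprint limit was MEDAKA021159, at 9.33 FPKM. When the limits on length, span and splicing were set aside, 8 of 93896 models (0.00852%) met the FPKM limits. The additional 5 were 180 to 273 bases long, lay on chromosomes 4, 9, 12, 17 and 24, and each had a length that is a multiple of 3. Of these 5, MEDAKA093647 on chromosome 24 had the highest level in its lower Ribo-seq replicate, with 22.8 and 43.2 FPKM in Ribo-seq replicates 1 and 2, against 1.2e-05 and 5.7e-07 FPKM in RNA-seq.

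Relatives of dnajc12 and sirt1 had RNA in the same libraries, in lists drawn up after the 3 models had been named. Of 27 matched J-domain co-chaperone genes, dnajc12 alone was listed at 0 in both RNA-seq libraries. It was chosen for low RNA, and only 0.386% of models matched to a RefSeq gene with a symbol were listed at 0. In the other 26 genes the higher RNA-seq level ran from 0.127 to 26.5 FPKM. Of the 25 of these that were tested, 13 were called higher in Ribo-seq and 0 lower (limma, adjusted p below 0.05), where 52.4% of named models were called higher and 6.02% lower. Their median log2 difference was 0.88, against 0.77 for named models. These calls rest on the scaling and on both RNA-seq libraries: 1 was called higher and 1 lower with FPKM as deposited, where the median was 0.19 against 0.13 for named models, and 3 were called higher without either RNA-seq replicate. dnajc7, with the highest RNA level of the list, had 20.3 and 37.9 FPKM in Ribo-seq, against 24.99 and 26.5 FPKM in RNA-seq. Its Ribo-seq values are near those of the dnajc12 model. Those of dnajb14 (15.9 and 29.5 FPKM) and dnaja2 (22.8 and 33.4 FPKM) were near too, with less RNA than dnajc7. Their RNA-seq levels were 15.8 and 15.8 FPKM for dnajb14, and 15.8 and 17.4 FPKM for dnaja2.

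Of 4 matched sirtuin genes, sirt1 alone was listed at 0, beside 0.386% of models matched to a RefSeq gene with a symbol. It had been named because it lies in the stretch. sirt2, a mostly cytoplasmic deacetylase, had 11.1 and 20.9 FPKM in Ribo-seq, against 10.6 and 10.2 FPKM in RNA-seq, and sirt3, a mitochondrial one, had 2.33 and 2.74, against 1.19 and 1.27. Both were called higher (limma, adjusted p = 0.010 and 0.011), and sirt5 was not called. The hydroxylases that DNAJC12 assists were measured as well. th, which makes the precursor of dopamine, had 4.42 and 7.98 FPKM in Ribo-seq, against 4.30 and 5.52 FPKM in RNA-seq (log2 difference 0.91 ± 0.23, SE; limma, adjusted p = 0.034). tph1, which starts serotonin synthesis, had 4.92 and 7.76, against 3.53 and 4.26, and pah, phenylalanine hydroxylase, 7.19 and 13.2, against 4.34 and 4.33. Both were called higher (adjusted p = 0.011 and 0.0055, limma). th2, another tyrosine hydroxylase gene, had 0 and 3.15, against 1.65 and 1.80, and was not called; its model lies within the span of the pah model. spr, of biopterin synthesis, had 6.99 and 3.92, against 7.20 and 7.64, and was not called. Of the 6 matched hydroxylase and biopterin genes, 4 were called higher and 0 lower, beside 52.4% and 6.02% of named models; without Ribo-seq replicate 2, 5 were called higher and 1 lower. In both lists 0 genes were called in either direction with FPKM as deposited, and likewise without RNA-seq replicate 1 or without RNA-seq replicate 2.

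Markers of the labelled tissue were present where they could be matched, with 1 exception. snap25 of neurons had 1541 and 2469 FPKM in Ribo-seq, against 351 and 355 in RNA-seq, and pomc of the pituitary had 505 and 819, against 247 and 231. oxt of the hypothalamus had 141 and 201, against 66.2 and 71.0. prl, the prolactin gene of the pituitary, was below 1 FPKM in every library, with 0.129 and 0.299 FPKM in Ribo-seq, against 0.367 and 0.114 in RNA-seq. fgb of liver and rho of retina were also below 1 FPKM in every library, and muscle and blood markers had no matched model.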

How the data were processed

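The authors deposited 1 table with the FPKM of each library for 93896 transcript models, per the file headers; TopHat2 (2.1.0) and Cufflinks (2.2.1) are listed in the submitters' processing notes, with no role stated. The build, annotation and strand setting were not given in the sources used here. Libraries were made with a mammalian TruSeq Ribo Profile kit, per the labels' protocols. Starts are written from 1, since in 6724 single-exon models the length equals end minus start. RefSeq names come from assembly ASM223467v1 by position alone: 2137 model ends lay within 10 bp of a protein-coding gene end, against 62 and 58 after moving the models by 20 kb either way. In all, 17796 models were matched.

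FPKM were used as deposited by the authors for the limits. For the fit they were divided by median ratio factors (0.651 and 0.925 for Ribo-seq, 1.40 and 1.32 for RNA-seq), a pseudocount of 1 was added, and the log2 values of 50625 models with a mean of at least 1 FPKM went into limma (3.58.1, R 4.3.3) with assay as its only factor, and p-values were adjusted by Benjamini-Hochberg. The fit was tested on simulated data. Python (3.11.15) with pandas (2.3.3), numpy (2.4.6), scipy (1.17.1) and matplotlib (3.10.9) did the rest. All members are named, with the models just outside each limit. The members and lists were chosen with earlier results of these data known. A median log2 difference of the members had been planned and is not given, since RNA-seq is listed at 0.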

Additional observations from a re-analysis of the deposited data

How the results depend on the processing

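A Ribo-seq limit of 10 FPKM kept 2 of the 3 models, and asking for values above 0 in both RNA-seq libraries left 0. The other changes of the FPKM limits could not drop a model listed at 0 in RNA-seq, so that keeping the 3 says nothing of stability. Limits on 1 library of an assay, leaving out the other, gave 6 to 21 models (16 and 21 without Ribo-seq replicates 1 and 2, 20 and 6 without RNA-seq replicates 1 and 2). An RNA-seq limit of 2 FPKM gave 36, a Ribo-seq limit of 2 FPKM 45, FPKM divided by the median ratio factor 22, and, in a setting added after seeing the data, no limit on length, span or splicing 8. The median length was 399 to 728 bases with a library left out, 1158.5 at a Ribo-seq limit of 10 FPKM and 1525 with 1 model per cluster, where the share of multiples of 3 was 0% and the share matched to RefSeq 100%. With a library left out, multiples of 3 made up 50% to 90%, models overlapping another 75% to 100% and models matched to RefSeq 20% to 33.3%. With any base of overlap 100% were matched.

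Among all models tested, 12116 were called higher and 17048 lower (limma). With FPKM as deposited 2425 were higher, with no filter 28801 were lower, and at a mean of at least 5 FPKM 4477 were lower. Leaving out a library gave 1529 to 16410 higher and 9458 to 17897 lower. With the replicate number as a block the counts were 11131 and 16488. The numbers are not known to pair the libraries: same-numbered deviations correlated at 0.068. With FPKM as deposited, herc4 (-0.28) and sirt5 (-0.42) changed sign, and neither was called in either fit. The named gene calls at dnajc7, sirt2, sirt3, th, tph1 and pah were lost with FPKM as deposited and without either RNA-seq replicate, and that of tial1 with FPKM as deposited. Without RNA-seq replicate 1 or 2 the log2 difference of pah was 1.63 or 1.69, against 1.70 with both, and that of sirt2 1.22 or 1.24. The call of th was also lost with no filter (limma, adjusted p = 0.0501). The cause was not tested.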
